A study of Mus musculus with 15 samples.

Results

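Levels of 10 genes for cytosolic heat shock proteins and their partners (Hspa1a, Hspa1b, Hspa8, Hsp90aa1, Hsph1, Dnajb1, Dnaja1, Hspb1, Hspb8 and Bag3) were compared across 15 arrays of pooled mouse liver. The genes were taken by symbol, and all 10 of 10 were measured, among 18193 genes on the Affymetrix GeneChip Mouse Genome 430 2.0 array. Together they had 26 probe sets, and the brightest by mean over the 15 arrays, among those annotated to that symbol alone, stood for each gene. The series asked whether liver expression patterns of males that met a nutritional challenge early in life recur in the sons they fathered. IUGR F1 livers came from adult males whose mothers' food was cut by 50% during gestation, and ON F1 livers from adult males overfed in the suckling period. IUGR F2 and ON F2 livers came from adult male offspring of those males, with no challenge of their own in the labels. Control livers came from adult males of the first and second generation together, so neither generation had controls of its own. Each group had 3 pools, numbered 1 to 3 (control), 4 to 6 (IUGR F1), 7 to 9 (ON F1), 10 to 12 (IUGR F2) and 13 to 15 (ON F2), and the 3 in the titles was read as livers per pool. Strain, age in weeks and hour of killing were not given in the sources used here, and the p-values rest on the pool-to-pool spread alone, part of which may be technical.

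Heat shock proteins of the cytosol are chaperones: they bind unfolded or newly made proteins, keep them from aggregating and pass them on for folding or degradation. HSP70 proteins work with J-domain partners of the HSP40 family, which stimulate their ATPase, and with nucleotide exchange factors, which make them let go of their client, while HSP90 completes the maturation of kinases and steroid receptors. Their genes are induced by the heat shock factor HSF1, which binds inverted repeats of GAA upstream of them. In liver they respond to body temperature, feeding and time of day.

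The stretches upstream of 5 of the genes are shown because they hold the known shared feature of these genes, or lack it, and because some of the genes moved together from pool to pool and others did not. The 250 bases before the transcript start are from RefSeq (GRCm38.p6), written 5′ to 3′ on the gene's own strand, with each match to GAANNTTC or TTCNNGAA in capitals. Both motifs read the same on the other strand. Hspa1a is at chr17:34972157-34972406 (minus strand), Hspa1b at chr17:34959239-34959488 (minus), Hsph1 at chr5:149636337-149636586 (minus), Hspb1 at chr5:135887669-135887918 (plus) and Bag3 at chr7:128523333-128523582 (plus).
Hspa1a: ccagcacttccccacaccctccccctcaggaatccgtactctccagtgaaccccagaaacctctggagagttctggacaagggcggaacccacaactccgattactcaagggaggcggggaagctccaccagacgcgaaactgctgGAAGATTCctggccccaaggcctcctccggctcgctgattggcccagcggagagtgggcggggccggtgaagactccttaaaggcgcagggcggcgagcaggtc
Hspa1b: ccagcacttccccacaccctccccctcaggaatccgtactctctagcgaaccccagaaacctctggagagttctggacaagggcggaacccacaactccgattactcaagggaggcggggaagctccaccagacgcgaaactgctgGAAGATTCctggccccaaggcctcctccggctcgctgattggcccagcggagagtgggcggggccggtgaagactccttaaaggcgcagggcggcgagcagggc
Hsph1: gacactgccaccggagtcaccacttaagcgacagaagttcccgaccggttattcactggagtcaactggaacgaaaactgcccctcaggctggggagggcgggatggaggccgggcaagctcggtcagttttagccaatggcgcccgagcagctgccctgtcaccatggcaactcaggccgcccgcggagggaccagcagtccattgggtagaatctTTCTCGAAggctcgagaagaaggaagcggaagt
Hspb1: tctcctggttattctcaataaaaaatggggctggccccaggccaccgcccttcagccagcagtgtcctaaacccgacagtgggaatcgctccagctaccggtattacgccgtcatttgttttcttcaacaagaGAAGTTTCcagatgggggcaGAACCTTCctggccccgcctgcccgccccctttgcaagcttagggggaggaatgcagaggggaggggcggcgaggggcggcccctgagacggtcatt
Bag3: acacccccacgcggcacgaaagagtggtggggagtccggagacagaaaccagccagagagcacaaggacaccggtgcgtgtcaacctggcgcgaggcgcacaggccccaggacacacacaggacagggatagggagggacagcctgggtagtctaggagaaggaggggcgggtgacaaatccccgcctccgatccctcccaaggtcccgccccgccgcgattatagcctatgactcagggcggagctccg

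Over windows of 300 bases (250 before to 50 after a start), 8 of the 10 genes matched 12 windows, and 8 of the 12 windows, of 7 genes, had a match to either motif. Among all 32851 windows of that length 15.1% had one. The match of Hspa1a and of Hspa1b began at -104 relative to the start, at the same place in both, and Hspb1 had a pair of matches, from -117 and -97. Hsph1 had 1 match before the start and 2 overlapping ones after it, which together make a run of 3 alternating TTC and GAA units, found in either order in 0.603% of windows. Bag3 had no match in the stretch printed and 1, GAAGTTTC, beginning at base 43 after the start. Dnaja1 (from -124) and Hspb8 (base 3 after it) had 1 each, and the windows of Dnajb1 had none. Of 300 positions the windows of Hspa1a and Hspa1b shared 296 (98.7%). The 4 substitutions, Hspa1a's base first and counted from the window's 5′ end, were C44T, T47C, T249G and, after the start, C276T. A match describes these letters and not the binding of a factor.

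The arrays were comparable in scale, with medians of 4.60 to 4.68. Levels are log2 RMA (robust multi-array average) values, and differences are log2 differences between group means with limma's standard error. Tests used 1 limma model with 5 group means, and p-values were adjusted with Benjamini-Hochberg over all 18193 genes. Hepatocyte markers matched the labelled tissue, with a mean level of 13.36 to 13.46 over 7 measured markers in every pool. Markers of other cells stood apart in single pools: the median of 6 acinar pancreas markers was 4.89 above the control mean in ON F2 pool 13, and that of 8 skeletal muscle markers 0.80 above it in IUGR F1 pool 5. Kupffer cell (liver macrophage) markers shared a direction in some comparisons, with none called by limma. In IUGR F1 10 of 10 were lower than in control (median -0.51), 6 with an unadjusted p under 0.05, against 8.43% of all genes. In IUGR F2 10 of 10 were lower than in ON F2 (median -0.42), again 6, against 10.1% of all genes. Their mean level ran over 6.88 to 7.42 (control), 6.60 to 6.68 (IUGR F1), 6.86 to 7.06 (ON F1), 6.58 to 7.21 (IUGR F2) and 7.09 to 7.58 (ON F2). The circadian gene Dbp, a marker of the hour, stood above 9 in pools 2, 5, 6, 13 and 14. RNA length was read from the log2 ratio of 3′ to 5′ actin probe sets, which ran from 1.76 to 2.28, highest in pools 12 and 8. In whole tissue, having fewer cells of a type and less RNA per cell cannot be told apart.

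The stress-inducible HSP70 genes, Hspa1b and Hspa1a, spread most of the 10 genes within groups. Hspa1b stood at 9.61, 9.66 and 10.13 in control pools 1, 2 and 3, at 8.67, 10.08 and 8.98 in IUGR F1 pools 4, 5 and 6, and at 9.31, 8.54 and 9.67 in ON F1 pools 7, 8 and 9. In the sons it stood at 10.19, 10.50 and 9.44 in IUGR F2 pools 10, 11 and 12 and at 9.85, 10.11 and 9.68 in ON F2 pools 13, 14 and 15. All ON F2 pools were above all ON F1 pools, whereas IUGR F1 pool 5 lay inside the IUGR F2 range, and each F2 group overlapped the controls. The group means were 9.80 ± 0.29 (control), 9.25 ± 0.74 (IUGR F1), 9.17 ± 0.58 (ON F1), 10.04 ± 0.54 (IUGR F2) and 9.88 ± 0.21 (ON F2) (SD, n = 3 each). The 6 F2 pools together averaged 0.75 ± 0.25 above the 6 F1 pools, 1.68-fold, with a limma adjusted p of 0.0979. Leaving out single pools gave 0.59 to 0.96. The difference passed in 1 of these 15 fits, that without IUGR F1 pool 5, the highest of the F1 pools (0.96, limma adjusted p = 0.0341). Against control Hspa1b differed by -0.55 ± 0.35 (IUGR F1), -0.63 ± 0.35 (ON F1), 0.24 ± 0.35 (IUGR F2) and 0.08 ± 0.35 (ON F2), and none passed.

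Hspa1a codes for a protein nearly identical to that of Hspa1b, and the probes of such close copies can share target, so the pair is uncertain as separate measurements. Its mean level over the pools was 5.73, against 9.63 for Hspa1b. Hspa1a levels ran from 4.47 in ON F1 pool 8 to 7.07 in IUGR F2 pool 11, a 6.07-fold range. The within-group SD was 0.67 for Hspa1a and 0.51 for Hspa1b, against a median of 0.13 over all genes. Of all genes, 99.6% had a smaller SD than Hspa1a and 99.0% a smaller one than Hspa1b. Even the 3 control pools of Hspa1a spanned 4.91 to 6.43, and every group overlapped the controls. The F2 pools averaged 0.60 ± 0.32 above the F1 pools (limma adjusted p = 0.286). The other 2 probe sets of Hspa1b followed the one used, with Pearson's r of 0.99 and 0.98 over the 15 pools.

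**Figure D1:**
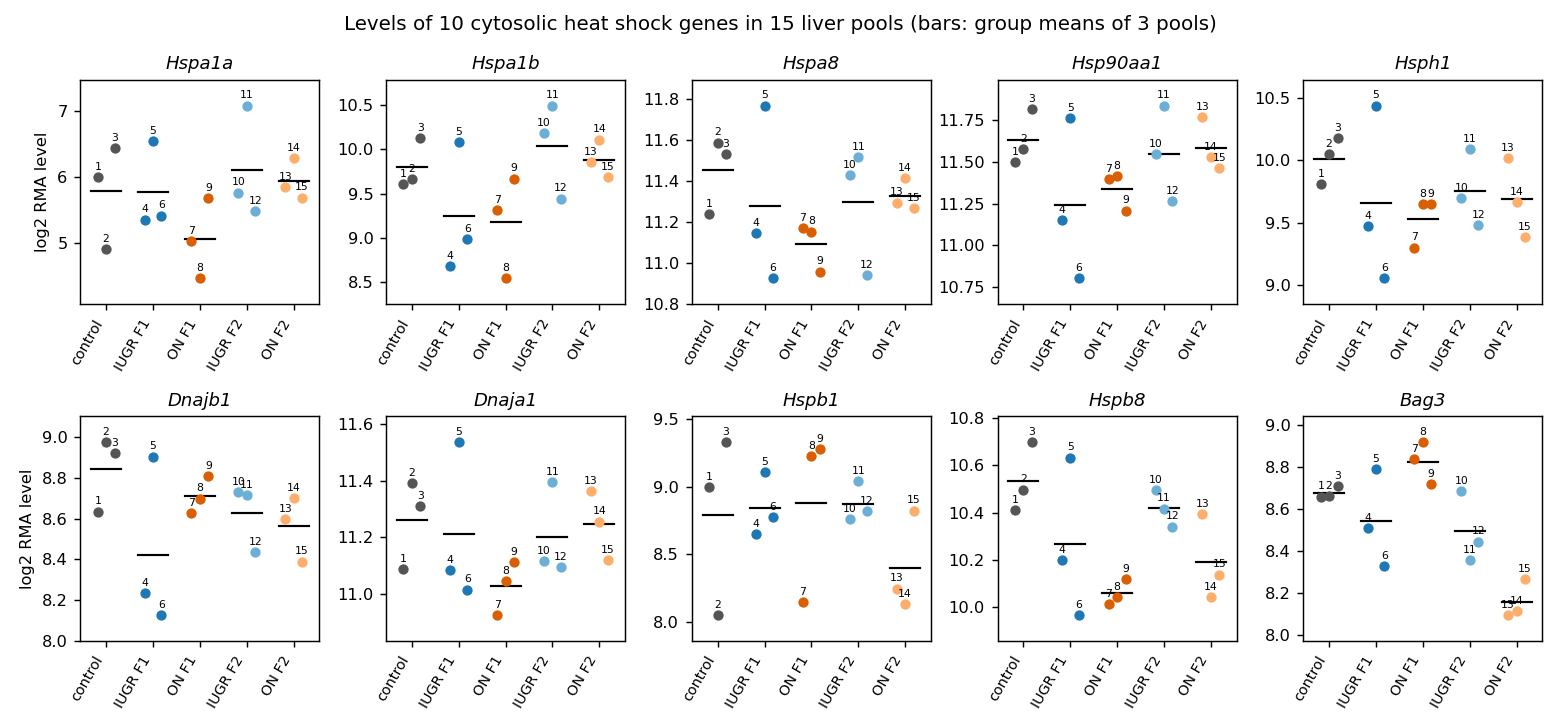
Log2 RMA level of each of the 10 heat shock genes in each of the 15 pools (points, labelled by pool number), by group, with the group mean of 3 pools as a bar. Pool 5 stood above the other IUGR F1 pools in every panel, and the 3 ON F2 pools of Bag3 lay between 8.10 and 8.27, below all pools of the other groups.

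At the probe sets used, Hspa8, the constitutive HSP70 of the cytosol, and Hsp90aa1, the inducible HSP90, varied less and passed in no comparison. Hspa8 averaged 11.45 ± 0.19 (control), 11.28 ± 0.44 (IUGR F1), 11.09 ± 0.12 (ON F1), 11.30 ± 0.31 (IUGR F2) and 11.33 ± 0.08 (ON F2) (SD, n = 3 each). Its lowest level was 10.93 in IUGR F1 pool 6 and its highest 11.77 in IUGR F1 pool 5, so the group with the widest spread held both ends. Hsp90aa1 averaged 11.63 ± 0.17 (control), 11.24 ± 0.49 (IUGR F1), 11.34 ± 0.11 (ON F1), 11.55 ± 0.29 (IUGR F2) and 11.58 ± 0.16 (ON F2). Its lowest pool was again pool 6 (10.80), and its highest pool 11 (11.84). With them, the widest differences from control were -0.36 ± 0.19 for Hspa8, in ON F1, and -0.39 ± 0.20 for Hsp90aa1, in IUGR F1 (limma adjusted p = 0.403 and 0.616). Among other probe sets of Hsp90aa1, 1437497_a_at and 1426645_at spread more over the 15 pools, with SDs of 0.589 and 0.505 against 0.282. Against control 1437497_a_at differed by -0.79 ± 0.39 in ON F1 and -0.66 ± 0.39 in ON F2. Neither passed (limma adjusted p = 0.410 and 0.508 over 45037 probe sets). The probe set used differed by -0.05 ± 0.20 in ON F2.

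A further probe set of Hspa8 gave a different pattern from the 3 bright ones. Probe set 1431182_at, with a mean level of 6.13, stood at 5.48, 6.35 and 6.02 in control, 5.24, 4.66 and 5.27 in IUGR F1 and 5.24, 5.89 and 6.24 in ON F1 pools. In the F2 pools it stood at 7.29, 6.69 and 6.04 (IUGR F2) and 6.63, 7.34 and 7.52 (ON F2). Of the 6 F2 pools, 5 were above every F1 pool and above every control pool, with IUGR F2 pool 12 as the exception. In a limma fit over all 45037 probe sets it rose by 1.50 ± 0.23 from F1 to F2 (adjusted p = 0.0116), where 2.58% of all probe sets were called. The 3 other probe sets differed by 0.12 ± 0.13, 0.16 ± 0.13 and 0.38 ± 0.20, and its correlation with the one used was 0.12. Against control 1431182_at differed by -0.89 ± 0.33 (IUGR F1), -0.16 ± 0.33 (ON F1), 0.73 ± 0.33 (IUGR F2) and 1.22 ± 0.33 (ON F2). None of these passed (limma adjusted p = 0.524, 0.878, 0.731 and 0.183). What transcript it reads was not tested. With the mean of all 4 probe sets, Hspa8 differed by 0.54 from F1 to F2 (limma adjusted p = 0.0476).

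HSPH1 is an HSP110 protein, a relative of HSP70 that acts as its nucleotide exchange factor and helps to dissolve aggregates. Hsph1 stood at 9.81, 10.05 and 10.18 (control), 9.47, 10.44 and 9.05 (IUGR F1) and 9.30, 9.65 and 9.65 (ON F1). In the F2 groups it stood at 9.70, 10.09 and 9.48 (IUGR F2) and 10.02, 9.67 and 9.39 (ON F2). All ON F1 pools were below all control pools, and the other 3 groups overlapped the controls. The 4 differences from control were all negative, from -0.48 ± 0.27 (ON F1) to -0.26 ± 0.27 (IUGR F2), with limma adjusted p-values of 0.445 to 0.896. The pools of IUGR F1 alone spanned 1.39, from the lowest to the highest Hsph1 level of the 15 pools.

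Dnajb1 and Dnaja1 code for HSP40 co-chaperones that deliver clients to HSP70. Dnajb1 stood at 8.63, 8.97 and 8.92 (control) and 8.24, 8.90 and 8.13 (IUGR F1), a difference of -0.42 ± 0.17 (limma adjusted p = 0.515). IUGR F1 pool 5 lay among the controls, and pools 4 and 6 were the lowest of the 15. Its other differences from control were -0.13 ± 0.17 (ON F1), -0.22 ± 0.17 (IUGR F2) and -0.28 ± 0.17 (ON F2). A second probe set of Dnajb1, 1416756_at, had a mean level of 7.57 and an r of 0.75 with the one used. In IUGR F1 it differed from control by only -0.08 ± 0.15 (limma adjusted p = 0.932 over 45037 probe sets), and its lowest level was in pool 15 (7.32). Dnaja1 spanned 10.93 in pool 7 to 11.53 in pool 5, the narrowest range of the 10 genes in these data, and its differences from control ran from -0.23 ± 0.13 (ON F1) to -0.02 ± 0.13 (ON F2). A dimmer probe set of Dnaja1, 1459835_s_at, rose by 0.53 ± 0.12 from F1 to F2 (limma adjusted p = 0.0319 over 45037 probe sets). It stood at 9.23, 9.74 and 9.67 (control), 8.99, 9.56 and 8.97 (IUGR F1), 9.44, 9.23 and 9.05 (ON F1), 9.70, 9.89 and 9.54 (IUGR F2) and 9.67, 9.81 and 9.79 (ON F2). Of the 6 F2 pools 5 were above every F1 pool and 3 above every control pool, and the differences from control did not pass (0.16 ± 0.16 in IUGR F2 and 0.21 ± 0.16 in ON F2, limma adjusted p = 0.904 and 0.628). The 2 other probe sets differed by 0.10 ± 0.09 and -0.02 ± 0.09.

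**Figure D2:**
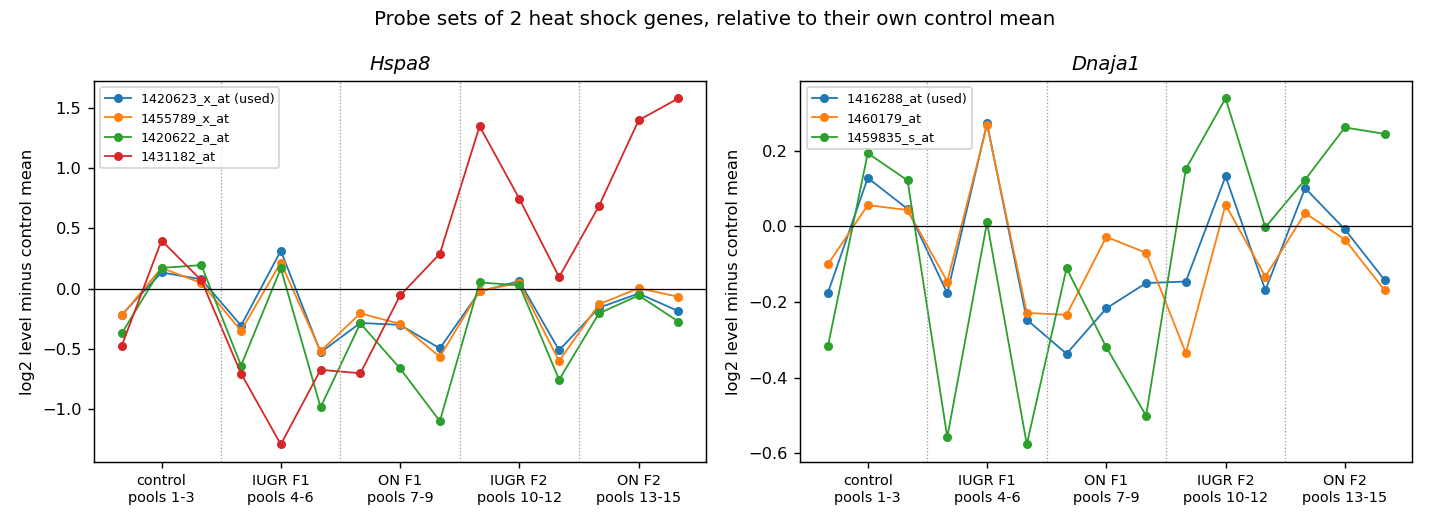
Log2 level of every probe set of Hspa8 (4) and Dnaja1 (3) in each pool, minus the mean of that probe set in the 3 control pools. The lines of 1431182_at and 1459835_s_at lay above every F1 pool in 5 of the 6 F2 pools, while the bright probe sets of both genes ran together.

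The small heat shock proteins hold unfolded proteins without using ATP. Hspb1 stood at 8.99, 8.05 and 9.33 in control, 8.65, 9.11 and 8.78 in IUGR F1 and 8.14, 9.23 and 9.28 in ON F1 pools. In the sons it stood at 8.76, 9.04 and 8.82 (IUGR F2) and 8.24, 8.13 and 8.82 (ON F2). Pools 2, 7, 13 and 14 were low, at 8.24 or less, and the other 11 lay at 8.65 or more, so control, ON F1 and ON F2 each held both kinds. Its second probe set showed the same pools low, with r of 0.97 between both. Differences from control were between -0.39 ± 0.32 (ON F2) and 0.09 ± 0.32 (ON F1), and none passed.

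HSPB8 partners with BAG3 to route misfolded proteins to autophagy. Hspb8 stood at 10.41, 10.50 and 10.70 in control, 10.20, 10.63 and 9.97 in IUGR F1 and 10.01, 10.04 and 10.12 in ON F1 pools. It stood at 10.50, 10.42 and 10.34 in IUGR F2 and at 10.39, 10.04 and 10.14 in ON F2 pools. At the probe set used, all ON F1 and all ON F2 pools were below all control pools, while pools of both IUGR groups lay inside the control range. The difference from control was -0.48 ± 0.14 in ON F1 (0.72-fold, limma adjusted p = 0.176) and -0.34 ± 0.14 in ON F2 (0.79-fold, limma adjusted p = 0.262). It was -0.27 ± 0.14 in IUGR F1 and -0.12 ± 0.14 in IUGR F2. Of the 10 genes, Hspb8 had the smallest p in ON F1 against control. Among its other probe sets, 1456434_x_at also had all ON F1 and ON F2 pools below the controls. At 1417014_at ON F2 pool 13 (7.36) lay above control pool 1 (7.32), and the other ON F1 and ON F2 pools lay below the controls.

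Bag3, the co-chaperone that binds both HSP70 and the small heat shock proteins, was the only one of the 10 genes called in a comparison with the probe sets used, and it was lowest in ON F2. It stood at 8.66, 8.66 and 8.71 in control, 8.51, 8.79 and 8.33 in IUGR F1 and 8.83, 8.92 and 8.72 in ON F1 pools. In the sons it stood at 8.69, 8.36 and 8.44 (IUGR F2) and 8.10, 8.11 and 8.27 (ON F2). The 3 ON F2 pools were below the other 12 pools, all ON F1 pools were above all controls, and both IUGR groups overlapped the controls. From ON F1 to ON F2 it fell by 0.66 ± 0.11 on the log2 scale, to 0.63-fold (limma adjusted p = 0.0193). Over both lineages it fell by 0.35 ± 0.08 from F1 to F2 (limma adjusted p = 0.0301). The change between generations was -0.05 ± 0.11 in the IUGR lineage, and the lineage by generation interaction, 0.62 ± 0.16, did not pass (limma adjusted p = 0.462). Against control Bag3 differed by -0.52 ± 0.11 in ON F2 (limma adjusted p = 0.107) and 0.15 ± 0.11 in ON F1.

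The calls of Bag3 depended on the fit and on single pools. With only the ON F1 and ON F2 arrays in the fit the limma adjusted p was 0.075, and with the Dbp level as a covariate the difference was -0.62 (limma adjusted p = 0.172). The ON call was lost without pool 7, 13 or 14 (-0.66, -0.63 and -0.64, limma adjusted p = 0.0627, 0.0558 and 0.0824). The call over both lineages was lost without pool 4, 7, 8, 11, 12, 13 or 14 and with Dbp as a covariate (-0.34, limma adjusted p = 0.0574), over pool omissions that gave -0.41 to -0.29. Dbp averaged 5.66 ± 0.50 in ON F1 and 9.03 ± 2.20 in ON F2 pools. In pools 13, 14 and 15 Dbp stood at 9.84, 10.71 and 6.54, and Bag3 at 8.10, 8.11 and 8.27. Over the 15 pools Dbp and Bag3 had a Pearson's r of -0.50 (permutation p = 0.0617, adjusted 0.31 over 40 relations). Their Spearman's rho was -0.48 (permutation p = 0.071, adjusted 0.47), and r of deviations from group means was -0.17. The median of the 6 acinar pancreas markers was 4.89, 0.14 and 0.14 above the control mean in pools 13, 14 and 15. Of 10 Kupffer cell markers 9 were higher in ON F2 than in ON F1 (median 0.26, none called by limma). An unadjusted p under 0.05 was found for 2 of these markers, against 19.3% of all genes. The part of these in the Bag3 result was not tested beyond the fits and correlations given.

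Read by comparison, 0 of the 10 genes were called against control in any of the 4 groups by limma. The shares of all genes called were 0% (IUGR F1), 0.022% (ON F1), 0% (IUGR F2) and 0% (ON F2). With no adjustment, a p under 0.05 was found for 1 of 10 in IUGR F1 (Dnajb1, against 8.43% of all genes), 1 in ON F1 (Hspb8, 14%), 0 in IUGR F2 (7.05%) and 2 in ON F2 (Hspb8 and Bag3, 15.1%). Of the 10 differences 9, 8, 7 and 8 were negative in that order, with medians of -0.22, -0.32, -0.10 and -0.20. Over all genes 47.7%, 45%, 53.4% and 50.7% of differences were negative, with medians of 0.01, 0.02, -0.01 and -0.003. The 4 comparisons share the 3 control pools. Many of the 10 genes also moved together from pool to pool, so the signs are not separate results. In pools 1, 2 and 3, in that order, 7, 8 and 10 of the 10 genes stood above their mean over the 15 pools. With single pools left out the medians ran from -0.43 to -0.04 (IUGR F1), -0.41 to -0.27 (ON F1), -0.16 to 0.01 (IUGR F2) and -0.26 to -0.11 (ON F2).

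Between generations, 0 of the 10 genes were called in the IUGR lineage (0.011% of all genes) and 1, Bag3, in the ON lineage (1.43%) and over both lineages (3.81%). With no adjustment a p under 0.05 was found for 1 (Hspa1b, against 11.4% of all genes), 1 (Bag3, 19.3%) and 2 (both, 22.3%). The genes stood higher in F2 in 8, 7 and 8 of 10 cases, with medians of 0.12, 0.19 and 0.13, where 41.9%, 43.4% and 40.7% of all genes stood higher. As many of the 10 genes were correlated over the pools, these signs too are not separate results. In the comparison over both lineages, 10 of 10 Kupffer cell markers were also higher in F2 (median 0.21, 4 with an unadjusted p under 0.05, none called by limma). Of 8 sinusoidal endothelial markers 7 were lower (median -0.23, 5 with an unadjusted p under 0.05, 1 called), with mean levels of 6.57 to 6.77 (IUGR F1), 6.61 to 6.73 (ON F1), 6.27 to 6.55 (IUGR F2) and 6.40 to 6.73 (ON F2). The part of either cell type in the levels of the 10 genes was not tested. Between lineages 0 of 10 were called by limma in F1 (0.011% of all genes), in F2 (0.0055%) and in the interaction (0.011%), and 0 in the F test over the 5 groups (0.187%). Bag3 alone had an unadjusted p under 0.05 in each of the first 3, against 6.35%, 10.1% and 7.71% of all genes.

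**Figure D3:**
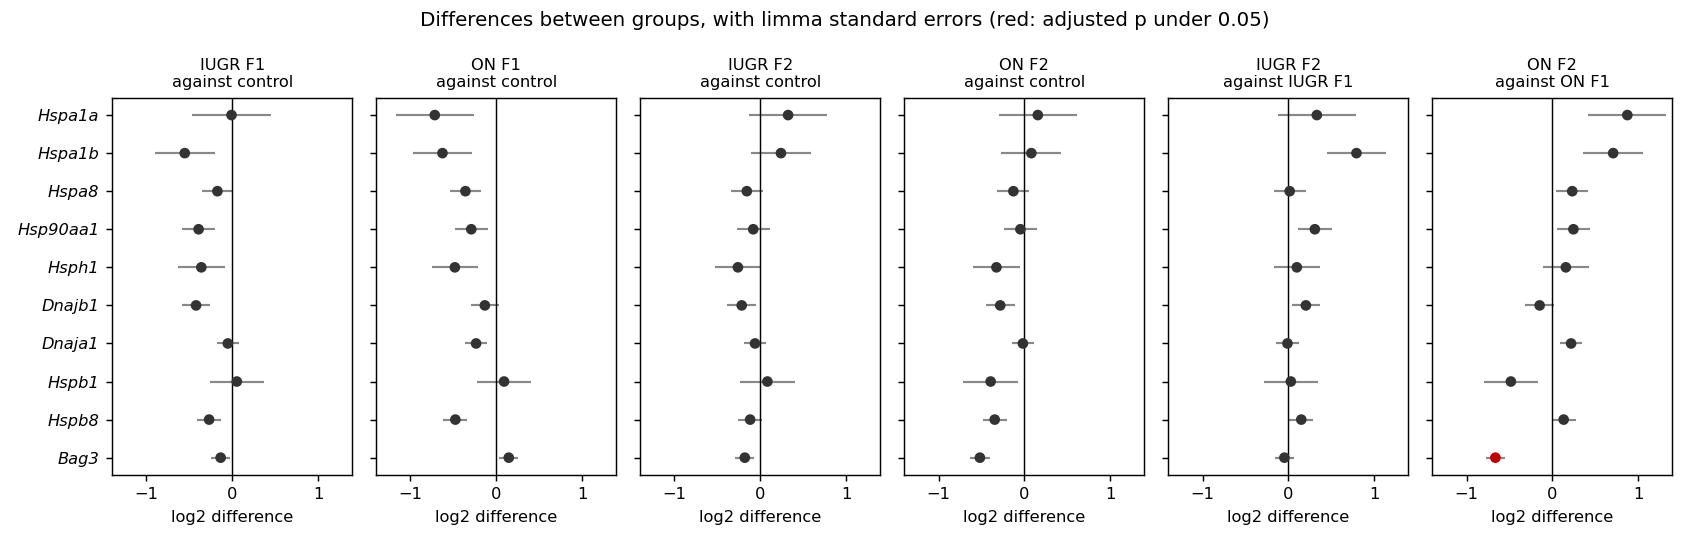
Log2 difference of each gene in 6 comparisons, with limma's standard error as a bar and red for an adjusted p under 0.05. Bag3 in ON F2 against ON F1, at -0.66, is the only red point, and the widest bars belong to Hspa1a.

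Much of the variation ran from pool to pool inside groups. All 10 genes stood above their own mean over 15 pools in control pool 3 and in IUGR F1 pool 5, and 9 of 10 in IUGR F2 pool 11. In IUGR F1 pool 4 no gene did, and in IUGR F1 pool 6 and ON F1 pool 7 only 1 of 10. Pool 6 held the lowest level of 5 genes, and pools 5 and 11 the highest of 3 each. Pools 5 and 6, of 1 group, thus held the highest and the lowest mean of the standardised levels, 1.32 and -1.25. Skeletal muscle markers were high in pool 5, and the median of 12 chaperones of the endoplasmic reticulum was 0.57 below the control mean in pool 6. The same median was lower still in ON F2 pool 15 (0.66 below) and also low in ON F1 pool 7 (0.52) and ON F2 pool 14 (0.40). The part of muscle in the levels of pool 5 was not tested.

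**Figure D4:**
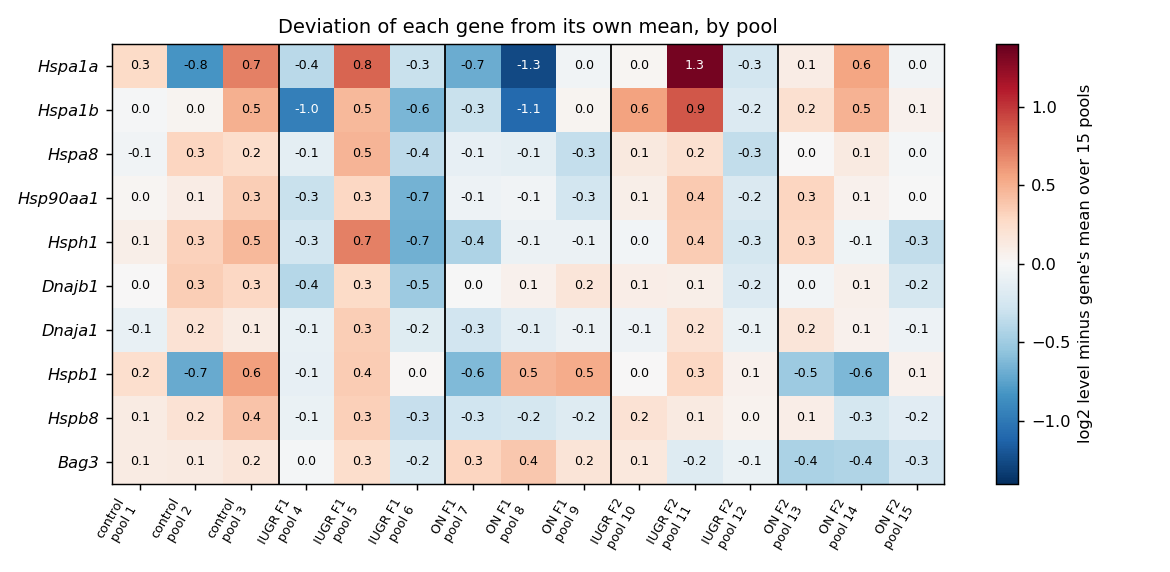
Level of each gene in each pool minus its mean over the 15 pools, in log2 units, with black lines between groups. Pools 3, 5 and 11 are red in nearly all rows and pools 4, 6, 7, 12 and 15 blue in most, while Hspb1 and Bag3 follow patterns of their own.

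Correlations between the genes over the 15 pools were taken for all 45 pairs, and the permutation p of Pearson's r, adjusted over them, was under 0.05 in 22 (24 by Spearman's rho). Hspb1 and Bag3 had the lowest median r with the rest. Setting them apart was done after the values were seen, so the ranges that follow are a description. The 28 pairs among the other 8 genes had r of 0.25 to 0.89, with a median of 0.69, and the lowest was that of Hspa1a and Dnajb1 (adjusted permutation p = 0.513). The closest pair was Hsph1 and Dnaja1 (r = 0.89, permutation p = 1e-05, the smallest they can give, adjusted 0.00045). Its rho was 0.82 (permutation p = 0.00028, adjusted 0.00208), and r without pools 5 and 6 was 0.86. Hspa1a and Hspa1b had r = 0.82 (permutation p = 0.0003, adjusted 0.00199), rho = 0.83 (permutation p = 0.00036, adjusted 0.00208) and r = 0.66 without pools 8 and 11. For Hspa8 and Hsp90aa1 r was 0.83 (permutation p = 0.00016, adjusted 0.0018), rho 0.90 (permutation p = 3e-05, adjusted 0.0009) and r without pools 5 and 6 0.80. None of the 9 pairs of Hspb1 (r = -0.07 to 0.40) and none of the 9 of Bag3 (-0.34 to 0.45) passed.

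Pairs within groups were judged from deviations from the group means. There the 28 pairs had r of 0.43 to 0.94, with a median of 0.77. Bag3's pairs with the other 9 then had r of -0.01 to 0.62, with a median of 0.42, so that its range overlapped that of the 28, and those of Hspb1 -0.01 to 0.47, with a median of 0.18. All pairs share the arrays and their normalisation.

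**Figure D5:**
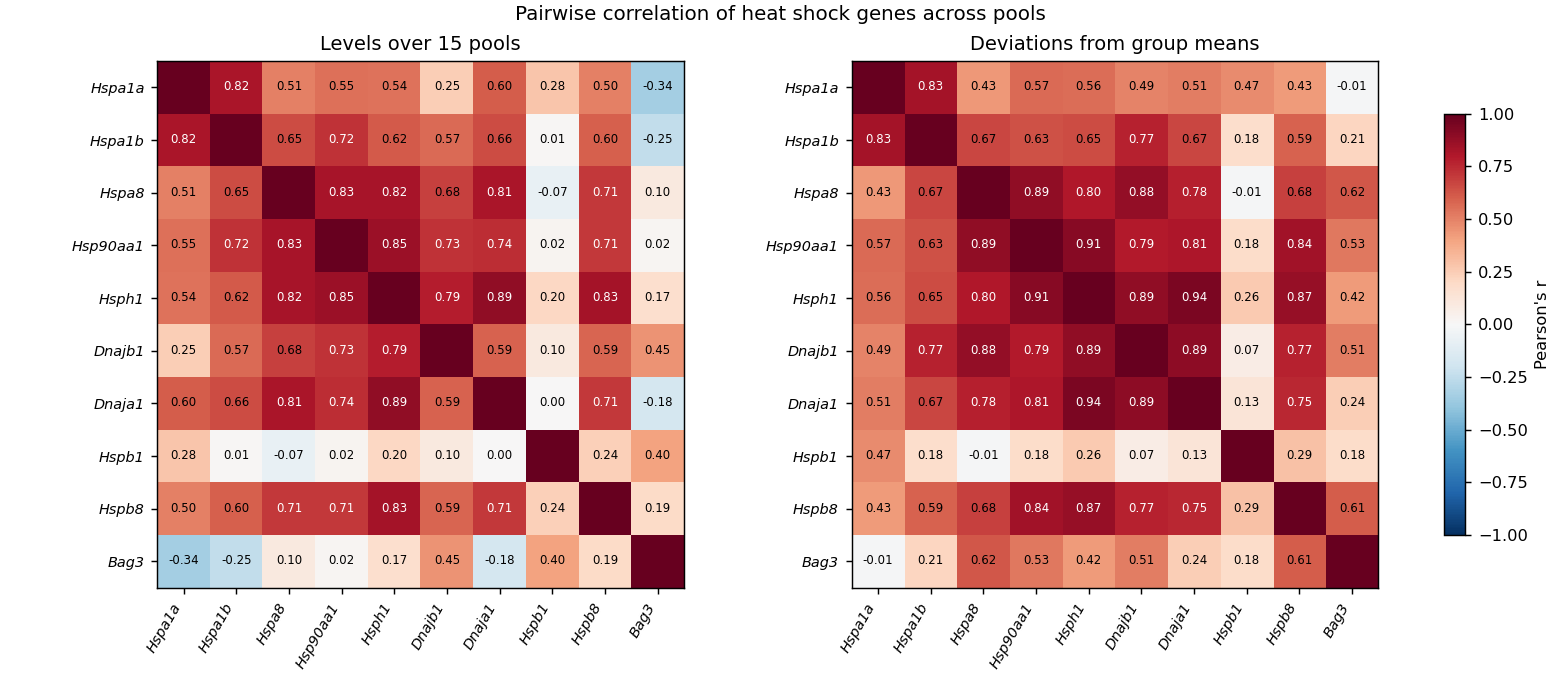
Pearson's r between each pair of heat shock genes over 15 pools, for levels (left) and for deviations from group means (right). The rows of Hspb1 and Bag3 are pale at left, and that of Bag3 is darker at right.

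Other measures of the pools were set against the 10 genes: Dbp, the cold-inducible RNA-binding protein gene Cirbp, the immediate early gene Fos and the actin ratio, 40 relations in all. Only Cirbp and Hspb8 passed, with r = -0.75 (permutation p = 0.00095, adjusted 0.038). The rho of this pair, -0.69, did not pass (permutation p = 0.00542, adjusted 0.217), and r without pools 9 and 14 was -0.76. Cirbp rises when tissue cools, whereas heat shock genes rise when it warms. Cirbp stood lowest in pools 5 and 3 (5.72 and 5.74) and highest in pool 14 (6.98), and its r with the 10 genes was negative in each case. Many of the 10 genes were correlated with one another, so these signs are not separate results. The part of tissue temperature in these levels was not tested, and Rbm3, the other cold-inducible gene listed, was not analysed here. Fos had r = 0.61 with Hspa1a (permutation p = 0.0136, adjusted 0.205) and 0.61 with Hspa1b (permutation p = 0.0154, adjusted 0.205). Their rho was 0.64 (permutation p = 0.0118, adjusted 0.235) and 0.52 (permutation p = 0.0474, adjusted 0.416). Without pools 8 and 9, r was 0.63 and 0.59. Dbp had its highest r with Dnaja1 (0.59, permutation p = 0.023, adjusted 0.23), with rho of 0.59 (permutation p = 0.0243, adjusted 0.324) and r of 0.55 without pools 2 and 14. The widest r of the actin ratio was -0.44, with Hspa8 (permutation p = 0.1, adjusted 0.364).

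The genes most like the mean standardised level of the 10, among 10353 genes with a mean of at least 5, were Jak1 (r = 0.88 over 15 pools), Fh1 (0.88), Chordc1 (0.88), Stip1 (0.87) and Ahsa2 (0.86). Zbed4, Lsg1, Ranbp9, Dync1li1 and Yme1l1 followed, down to 0.81. Jak1 is a cytokine receptor kinase and Fh1 the fumarate hydratase of the citric acid cycle. CHORDC1, STIP1 and AHSA2 are co-chaperones of HSP90. Stip1 stood at 8.46 in pool 5 and 7.64 in pool 6, and Chordc1 at 9.16 and 8.56. The most opposite were Msh3 (-0.82), Rdh7 (-0.82), Dennd4b (-0.81), Hdac3 (-0.80) and Pnldc1 (-0.80). These correlations describe shared arrays and carry no test, and of the 10 most like, 4 (Jak1, Fh1, Chordc1 and Stip1) were among the top 10 when deviations from group means were used, and 0 of the 5 most opposite were among the bottom 5.

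The wider chaperone network was read from 10 lists with 94 genes, of which 87 were measured. Limma called 0 of the 87 against control in any group, and 0 in either lineage between generations. Over both lineages 4 were called from F1 to F2, or 4.6% against 3.81% of all genes. Hsp90b1, the HSP90 of the endoplasmic reticulum, rose by 0.36 ± 0.08 (limma adjusted p = 0.0292). The HSP70 gene Hspa14 fell by 0.29 ± 0.06 (0.0272), the phosphatase gene Ppp5c, whose product binds HSP90, fell by 0.27 ± 0.06 (0.0239), and the HSP40 gene Dnajb5 fell by 0.38 ± 0.08 (0.0248), with limma adjusted p-values in brackets. Against control 67, 61, 63 and 70 of the 87 differences were negative in IUGR F1, ON F1, IUGR F2 and ON F2, with medians of -0.07, -0.07, -0.09 and -0.12. Over all genes 47.7%, 45%, 53.4% and 50.7% were negative. From F1 to F2 over both lineages 59 of the 87 were lower (median -0.04), against 59.3% of all genes and 2 of the 10 heat shock genes.

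The likeness of the listed genes to the 10 is given as a description by compartment and family, and the ranges of the lists overlapped. Median r over 15 pools was 0.61 for 8 subunits of the cytosolic chaperonin, 0.62 for 12 chaperones of the endoplasmic reticulum and 0.47 for 9 measured co-chaperones of HSP90. It was 0.42 for 8 other HSP70 and HSP110 genes, 0.41 for 6 further heat-inducible genes and 0.19 for 8 other small heat shock genes. It was 0.10 for 13 other HSP40 genes, 0.09 for 8 nucleotide exchange factors and ligases, 0.02 for 10 mitochondrial chaperones and 0.00 for 5 heat shock factors and regulators, against -0.04 for all other genes. Chaperones of the endoplasmic reticulum stood lower than control in 12, 11, 9 and 12 of 12 cases in IUGR F1, ON F1, IUGR F2 and ON F2, with medians of -0.21, -0.28, -0.07 and -0.43, and none was called. In lists with no call, the genes with the smallest p of the F test were Hsbp1, Hspbp1, Cryaa, Cct4, Clpp and Ier5, with limma adjusted p-values of 0.437, 0.303, 0.101, 0.238, 0.162 and 0.383. Hsf1, the main activator of these genes, and Hsp90ab1 were not analysed here.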

How the data were processed

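Expression was measured in 15 arrays of pooled liver, in 5 groups of 3, as titles and treatment labels give them. The authors deposited log2 levels of each probe set, computed with RMA per the submitters' processing notes, the version not given in the sources used here. RMA corrects background, aligns the arrays by quantiles and summarises probes, so shifts shared by most genes are removed. Precision is limited by the number of arrays, with 0.104 as the median standard error. Of 45101 probe sets, 64 controls were left out. Of the rest, 34945 had 1 symbol in the platform annotation, 932 several and 9160 none, and the last 2 kinds named no gene.

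For 18193 genes, each read from its brightest probe set, 1 model of 5 group means was fitted with limma 3.58.1 (R 4.3.3), with Benjamini-Hochberg adjustment over all genes and a threshold of 0.05. The script was tested on simulated data. A fit over all 45037 probe sets was added after seeing the data. Correlations used 100000 permutations. The genes named outside the 10 were every called gene of 24 lists with 200 entries (184 measured) or, with no call, the gene with the smallest p of the F test, and the 10 genes most and 5 least like the set. The 10 genes and the lists were chosen with earlier results of these data known. Alternatives were averaging the probe sets of a gene, a mean of at least 5, only the groups compared, an intensity trend in the prior, Dbp as a covariate, centring on the median, and each pool left out. The pool numbers differ between groups and pair no samples. Promoters, from RefSeq (GRCm38.p6), were searched for GAANNTTC and TTCNNGAA.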

Additional observations from a re-analysis of the deposited data

Results flagged for a closer look

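Probe set 1431182_at of Hspa8, which was not used for the gene, rose by 1.50 ± 0.23 from F1 to F2 over both lineages (limma adjusted p = 0.0116 over 45037 probe sets) and averaged more in the F2 pools than the highest control pool. Its differences from control, 0.73 ± 0.33 (IUGR F2) and 1.22 ± 0.33 (ON F2), did not pass (limma adjusted p = 0.731 and 0.183). The probe set was singled out as a signal outside the main measurement, and which transcript gives that signal was not tested.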

How the results depend on the processing

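Of 73 differences of single genes, 49 kept their direction under all other settings and with each of the 15 pools left out. With probe sets averaged per gene, 1 gene was called in IUGR F1 and 1 in ON F1 against control, 0 in IUGR F2 against ON F2 and 1 in the interaction. From F1 to F2 over both lineages 2 of the 10 heat shock genes were then called, in a comparison that called 3.81% of all genes in the main fit. The added call, Hspa8 (0.54), averages 1431182_at, which rose by 1.50, with probe sets that differed by 0.12, 0.16 and 0.38. With genes of a mean of at least 5 there were 1 in ON F1 against control, 5 in IUGR F2 against IUGR F1 and 6 in IUGR F2 against ON F2. With only the groups compared there were 0 in ON F1 against control, 1 in IUGR F2 against IUGR F1, 7 in ON F2 against ON F1 (0 of the 10), 0 in IUGR F1 against ON F1 and 0 in IUGR F2 against ON F2. With an intensity trend there were 1 in IUGR F1 against ON F1 and 4 in IUGR F2 against ON F2. With Dbp as a covariate there were 1 in ON F1 against control, 3 in ON F2 against ON F1 (0 of the 10), 1 in IUGR F1 against ON F1, 4 in IUGR F2 against ON F2, 1 in the interaction, 279 from F1 to F2 over both lineages (0 of the 10) and 8 in the F test. Centred on the median there were 4 in IUGR F2 against ON F2 and 52 in the F test. The count restricted to the groups compared rests on fewer arrays, and the cause of the other shifts was not tested.

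Leaving out 1 pool at a time gave 0 to 21 genes in ON F1 against control, 0 to 1 in IUGR F2 and in ON F2 against control, 0 to 4 in IUGR F2 against IUGR F1, 19 to 313 in ON F2 against ON F1, 0 to 3 in IUGR F1 against ON F1, 0 to 7 in IUGR F2 against ON F2, 2 to 4 in the interaction, 149 to 790 from F1 to F2 over both lineages and 7 to 40 in the F test. Of the 10 genes it called 0 to 1 in ON F2 against ON F1, 0 to 2 over both lineages and 0 to 1 in the F test, where Bag3 was called without pool 5. Their median ran from -0.22 to 0.24 in IUGR F1 against ON F1, from -0.0162 to 0.39 in IUGR F2 against IUGR F1 and from -0.14 to 0.33 in the interaction, with pool 5 left out at -0.22, 0.39 and 0.33.

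Differences that changed sign were all uncalled. With the mean of probe sets Hspa8 was 0.0404 in IUGR F2 and 0.21 in ON F2 against control, Hspa1b -0.0031 and Dnaja1 0.0458 in ON F2 against control, Dnaja1 0.14 in IUGR F2 against IUGR F1 and Dnajb1 -0.0478 from F1 to F2. With Dbp as a covariate Hspb1 was -0.076 in ON F1 and -0.0091 in IUGR F2 against control and -0.10 in IUGR F2 against IUGR F1, Hspa1b -0.0248 in ON F2 against control, Dnaja1 0.0618 in IUGR F2 against IUGR F1, Hsph1 -0.0539 in ON F2 against ON F1 and Dnajb1 -0.0261 from F1 to F2. Centred on the median, Dnaja1 was 0.0316 in IUGR F2 against IUGR F1. With pools left out, the ranges that crossed 0 in IUGR F1 against control were -0.21 to 0.0472 (Dnaja1), -0.44 to 0.32 (Hspa1a), -0.42 to 0.0053 (Hspa8) and -0.32 to 0.32 (Hspb1), and in ON F1 -0.28 to 0.46 (Hspb1). In IUGR F2 against control they were -0.16 to 0.0032 (Dnaja1), -0.23 to 0.0605 (Hsp90aa1), -0.16 to 0.65 (Hspa1a), -0.27 to 0.0204 (Hspa8) and -0.29 to 0.35 (Hspb1), and in ON F2 -0.10 to 0.0477 (Dnaja1), -0.14 to 0.0472 (Hsp90aa1), -0.28 to 0.48 (Hspa1a) and -0.0321 to 0.25 (Hspa1b). In IUGR F2 against IUGR F1 they were -0.15 to 0.0783 (Bag3), -0.11 to 0.15 (Dnaja1), -0.15 to 0.72 (Hspa1a), -0.16 to 0.26 (Hspa8), -0.0694 to 0.16 (Hspb1) and -0.20 to 0.49 (Hsph1). For ON F2 against ON F1 Hsph1 ran from -0.0071 to 0.31, and from F1 to F2 Hsph1 from -0.0225 to 0.32 and Dnajb1 from -0.0457 to 0.15. No paired analysis was possible because the pool numbers are not shared between groups.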

Other observations

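Beside the heat shock genes, called genes of the other lists lay in comparisons between generations. From ON F1 to ON F2 the clock gene Npas2 fell by 2.19 ± 0.45 (limma adjusted p = 0.0338) and Sox9, a transcription factor gene of bile duct cells, fell by 0.83 ± 0.17 (0.0315), the bracketed value being limma's adjusted p as for the next genes. Over both lineages the immediate early gene Fosb rose by 0.28 ± 0.06 (0.033), the endothelial cadherin gene Cdh5 fell by 0.36 ± 0.08 (0.0311) and the stellate cell marker Des fell by 0.27 ± 0.07 (0.0431).

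In the remaining lists, the genes with the smallest p of the F test over groups did not pass. They were Cirbp (limma adjusted p = 0.357), the metallothionein gene Mt2 (0.413), the hepatocyte gene Cyp2e1 (0.338), the Kupffer cell gene Vsig4 (0.111), the leukocyte gene Ptprc (0.194), Hba-a1 (0.376), Myh1 (0.415), Cel (0.404) and Adipoq (0.304). Mt2 varied widely inside groups, with means of 10.1 ± 0.98 (control), 8.17 ± 2.88 (IUGR F1), 6.91 ± 0.66 (ON F1), 10.3 ± 2.11 (IUGR F2) and 8.54 ± 2.94 (ON F2) (SD, n = 3 each).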
